A study of Mus musculus with 6 samples.

Results

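Paneth cell alpha-defensins and 4 companion genes were followed in mouse intestinal tumor organoids of 3 Trp53 genotypes. The members are the rows of the deposited RPKM table whose symbol begins with Defa, together with Gm15284, which RefSeq names Defa30, and with Lyz1, Ang4, Itln1 and Pla2g2a. They number 29 of 36172 rows, of which 25 are alpha-defensin rows and 4 are companions. The organoids were derived from intestinal tumors of C57BL/6 mice aged 15 to 20 weeks, and RNA-seq was carried out on 6 libraries, 2 for each genotype. All 6 carried a truncating Apc allele (Apc(D716)) with loss of the other Apc allele, so the Trp53 +/+ organoids were tumor organoids and not normal epithelium. The Trp53 flox/flox organoids carried a stop-blocked R270H allele that had not been recombined and acts as a null. In the Trp53 R270H/R270H organoids the same allele had been activated by tamoxifen through villin-CreER, which is active in intestinal epithelium, so that the mutant protein was made. The study asked what the expression of the R270H mutant changes in these tumors, and the design therefore allows each mutant genotype to be compared with +/+ and R270H/R270H with flox/flox.

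Paneth cells sit at the base of small intestinal crypts and release granules of antimicrobial proteins into the lumen. The mouse alpha-defensins, also called cryptdins, are short cationic peptides that damage bacterial membranes, and they are encoded by a large tandem family whose copies are nearly identical. Their precursors are cut to the active form by the metalloproteinase Mmp7, and transcription of several of them is known to respond to Wnt signalling through TCF factors, which is active in Apc-mutant tumors. Lyz1 encodes Paneth cell lysozyme, Ang4 an antimicrobial ribonuclease, Itln1 a lectin that binds microbial sugars, and Pla2g2a a secreted phospholipase A2 for which C57BL/6 mice carry a disrupted allele.

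Trp53 RNA was 75.1 ± 1.10 RPKM (SD, n = 2) in +/+, 2.11 ± 0.529 RPKM in flox/flox and 77.7 ± 7.00 RPKM in R270H/R270H organoids, which is the pattern that the genotype labels give. RPKM counts reads per kilobase of transcript, scaled to the mapped reads of the library, so levels of different genes are compared per length. No value in the table lies below 1 RPKM, which was taken as a floor. Depth could be read from the smallest steps of short genes in 4 of the 6 libraries and lay between 44.3 and 47.4 M reads, at which 1 RPKM of the 411-nt Defa23 transcript stands for 18.2 to 19.5 reads. The flox/flox libraries differed more from each other than those of the other genotypes, with a median SD of 0.25 on the log2 scale against 0.05 in +/+ and 0.06 in R270H/R270H. In bulk RNA a smaller number of Paneth-like cells and less RNA per cell cannot be told apart.

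The 25 alpha-defensin rows all lie on chromosome 8. All 11 rows named as pseudogenes were at the floor in every library, as were Defa25 and Defa-rs7, which RefSeq names Defa31. The 12 remaining rows passed the filter of 4 RPKM in at least 1 library, and they span 710 kb (chr8:21025545-21735471, GRCm38). The 11 rows described here were grouped by sequence: 23 alpha-defensin transcripts of GENCODE were aligned in pairs and clustered by average linkage at 89% identity, a limit chosen after the values were seen. A Defa23-like group held Defa23, Defa3, Defa24, Gm15284, Defa17 and Defa26, which were 88.7% to 99.7% identical to one another. A Defa21-like group held Defa21, Defa22, Defa2 and Defa20, at 91.6% to 99.8%. Defa5 belonged to neither group. Identity between rows of different groups ranged from 81.2% to 89.6%.

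**Figure D1:**
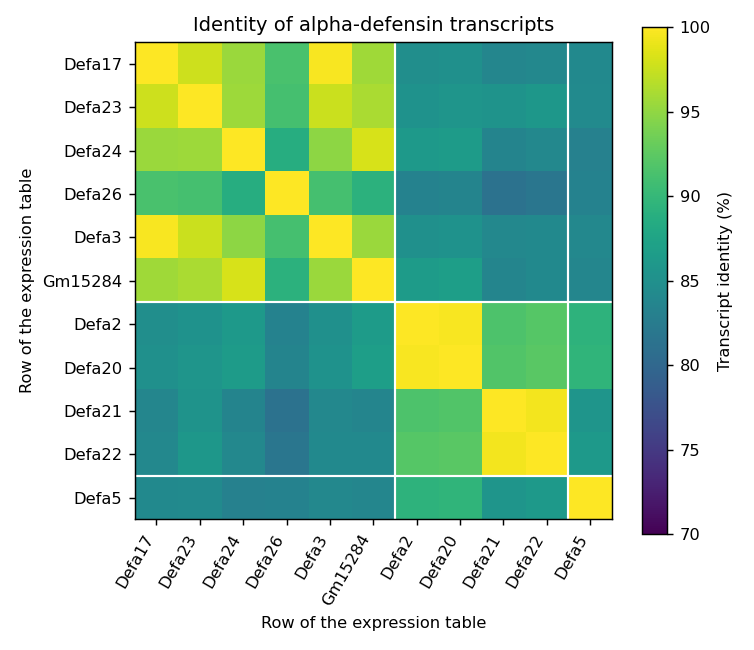
Percent identity between the GENCODE transcripts of 11 expressed alpha-defensin rows, with white lines between the sequence groups. The first block holds the Defa23-like group (88.7% to 99.7%) and the second the Defa21-like group (91.6% to 99.8%), while Defa5 stands alone.

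Where a start region was available, identity over the whole region followed the same division. The short words marked below did not, since Gm15284 differed from Defa23 in their number and in their distance from the annotated start. The bases on both sides of the TCAAAG of Gm15284 match those around the upstream TCAAAG of Defa23. The difference in distance therefore lies in where the start is annotated. Defa3, Defa24, Defa17, Defa26 and Defa5 had no start region to compare. RefSeq (GRCm38.p6) gave a promoter window of 250 bases before and 50 after the start for 10 of the 29 members, 7 of them alpha-defensins. The 150 bases before the start are printed here for 2 rows of each large group, because the groups are compared throughout. Capitals mark TCAAAG, the reverse complement of the TCF-type word CTTTGA, and the TATA word TATAAA.
Defa21, chr8:21025395-21025544, plus strand: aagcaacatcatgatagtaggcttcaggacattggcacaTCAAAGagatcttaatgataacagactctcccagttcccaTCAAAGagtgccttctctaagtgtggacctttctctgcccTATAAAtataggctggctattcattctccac
Defa2, chr8:21378367-21378516, plus strand: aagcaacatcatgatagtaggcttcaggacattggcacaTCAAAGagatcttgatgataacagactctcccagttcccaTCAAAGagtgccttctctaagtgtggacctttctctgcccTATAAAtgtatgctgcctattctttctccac
Defa23, chr8:21054890-21055039, plus strand: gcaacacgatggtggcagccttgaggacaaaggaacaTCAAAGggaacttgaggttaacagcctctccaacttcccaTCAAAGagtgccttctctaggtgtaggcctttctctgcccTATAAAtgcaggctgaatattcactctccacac
Gm15284, chr8:21134500-21134649, plus strand: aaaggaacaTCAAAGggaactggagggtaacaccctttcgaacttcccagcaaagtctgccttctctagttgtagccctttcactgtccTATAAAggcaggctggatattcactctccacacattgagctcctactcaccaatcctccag

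Both rows of the Defa21-like group and Defa23 held the TCF-type word at 2 places 40 bases apart, and Gm15284 held it once. In Defa21, Defa22, Defa2 and Defa20 the words began 111 and 71 bases before the start, and in Defa23 and Defa-rs7 they began 113 and 73 bases before it. In Gm15284 the word began 141 bases before the start. TATAAA stood in all 7 defensin windows, 31 bases before the start in the Defa21-like rows, 33 in Defa23 and Defa-rs7, and 61 in Gm15284. Over both strands, CTTTGA was found at least 1 time in 16.0% and at least 2 times in 1.73% of 32851 mouse promoter windows, and TATAAA, searched on the gene's strand, in 8.32%. The windows of Itln1, Lyz1 and Ang4 held neither word. The windows of Defa21 and Defa22 were identical, as were those of Defa2 and Defa20, and Defa21 and Defa2 were 97.7% identical. Defa23 was 91.4% identical to Gm15284 and 83.8% to Defa21. These words are descriptions of sequence and no binding was measured.

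Because the copies are so alike, single rows carry an uncertainty that the replicate error does not show. Of the 50-base windows of each transcript, 100% of Defa2 and Defa20, 94.8% of Defa23, 92.2% of Defa3 and 92.0% of Defa17 also occur in another alpha-defensin transcript. The share was 84.4% in Defa5, 74.9% in Defa22, 72.9% in Defa21, 52.4% in Gm15284, 28.1% in Defa24 and 2.79% in Defa26. Defa-rs7, at the floor throughout, is identical to Defa23 over the aligned bases, has 100% of its windows shared and has a promoter window identical to that of Defa23. Its absence from the values therefore cannot be told apart from an assignment of its reads to Defa23. Sums over the family and over each group are given for this reason. Windows shared within a group and between groups were not counted apart, so a group sum may still hold reads of another group.

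The summed level of the 25 alpha-defensin rows was highest in +/+ organoids and lowest in flox/flox organoids. It was 1789 and 1424 RPKM in the +/+ libraries, 173 and 176 RPKM in the flox/flox libraries, and 620 and 655 RPKM in the R270H/R270H libraries. The genotypes did not overlap. The mean of 1607 ± 258 RPKM in +/+ was 9.20 times that of 175 ± 2.34 RPKM in flox/flox and 2.52 times that of 638 ± 24.9 RPKM in R270H/R270H (SD, n = 2). The R270H/R270H mean was 3.65 times the flox/flox mean.

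The make-up of the sum differed too. Of the summed level of the 11 rows, the Defa23-like group gave 90.2% and 90.5% in +/+, 74.9% and 84.0% in flox/flox, and 35.6% and 44.5% in R270H/R270H. The Defa21-like group gave 4.46% and 4.34% in +/+, 17.6% and 10.9% in flox/flox, and 37.8% and 34.3% in R270H/R270H. Defa5 alone gave 5.38% and 5.12% in +/+, 7.43% and 5.04% in flox/flox, and 26.6% and 21.3% in R270H/R270H. The most abundant defensins of the +/+ organoids thus made up less than the remaining ones in both R270H/R270H libraries.

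**Figure D2:**
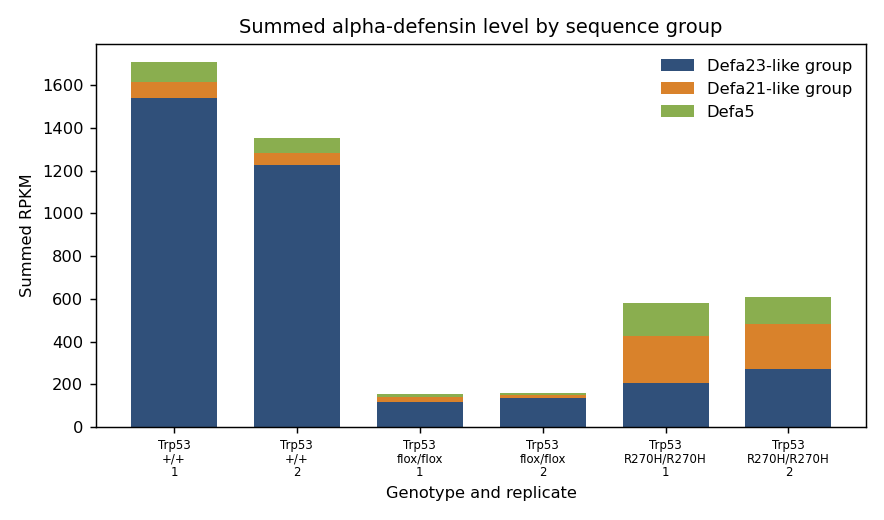
Stacked bars of summed RPKM of 11 expressed alpha-defensin rows in each library, by sequence group, from 0. The +/+ bars reach 1708 and 1354 RPKM and are mostly Defa23-like, the flox/flox bars reach 153 and 159 RPKM, and the R270H/R270H bars of 581 and 611 RPKM hold comparable amounts of Defa23-like and Defa21-like RNA.

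The fit across all 10042 genes that passed the filter (limma on log2(RPKM + 1), Benjamini-Hochberg adjusted p under 0.05) called 13 of the 16 tested members between flox/flox and +/+. The 13 include Defa26, which passed the filter through +/+ alone, so its call is not independent of that selection. All 13 were lower in flox/flox, against 6.90% of all tested genes called lower. None was higher, against 4.38% of all genes, and at an unadjusted p under 0.05 the counts were 0 higher and 16 lower. The median log2 fold change of the 16 was −2.93, and that of all tested genes −0.02. Without +/+ replicate 1 no member was called, without +/+ replicate 2 there was 1 call, without either R270H/R270H library there were 4, and a fit of the flox/flox and +/+ libraries alone called 7. The direction of all 16 was the same in each of these fits.

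Between R270H/R270H and +/+ the members divided. The same fit called 9 of the 16 lower in R270H/R270H, against 6.36% of all genes, and 4 higher, against 5.86% of all genes. The 9 included the 6 Defa23-like rows, Lyz1 and Ang4, and the 4 were Defa21, Defa22, Defa2 and Itln1. Among the Defa23-like rows, Defa26 passed the filter through +/+ alone, so its call is not independent of that selection. Defa5, Defa20 and Pla2g2a were not called. Without +/+ replicate 1, without +/+ replicate 2 or without R270H/R270H replicate 1 no member was called, and without R270H/R270H replicate 2 there were 4 calls, all lower. With either flox/flox library left out there were 15, and the sign of every member's difference was the same in all 15 alternative fits.

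Between R270H/R270H and flox/flox 11 of the 16 were called, all higher in R270H/R270H, against 13.6% of all genes. None was called lower, against 11.0% of all genes, and at an unadjusted p under 0.05 the counts were 15 higher and 0 lower. The 11 were 10 alpha-defensin rows and Itln1. The median log2 fold change of the 16 was 1.39, and that of all tested genes 0.03. Without R270H/R270H replicate 1 or 2 there were 3 calls, and without +/+ replicate 1 or 2, or in a fit of the 2 genotypes alone, 6. The comparisons share libraries, so they are not independent of one another, and no source used here says whether the 2 libraries of a genotype came from separate animals or cultures, so the p-values measure only the spread between these libraries, which may be technical. With 2 libraries a group, an exact permutation test of a single gene cannot reach 0.05.

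**Figure D3:**
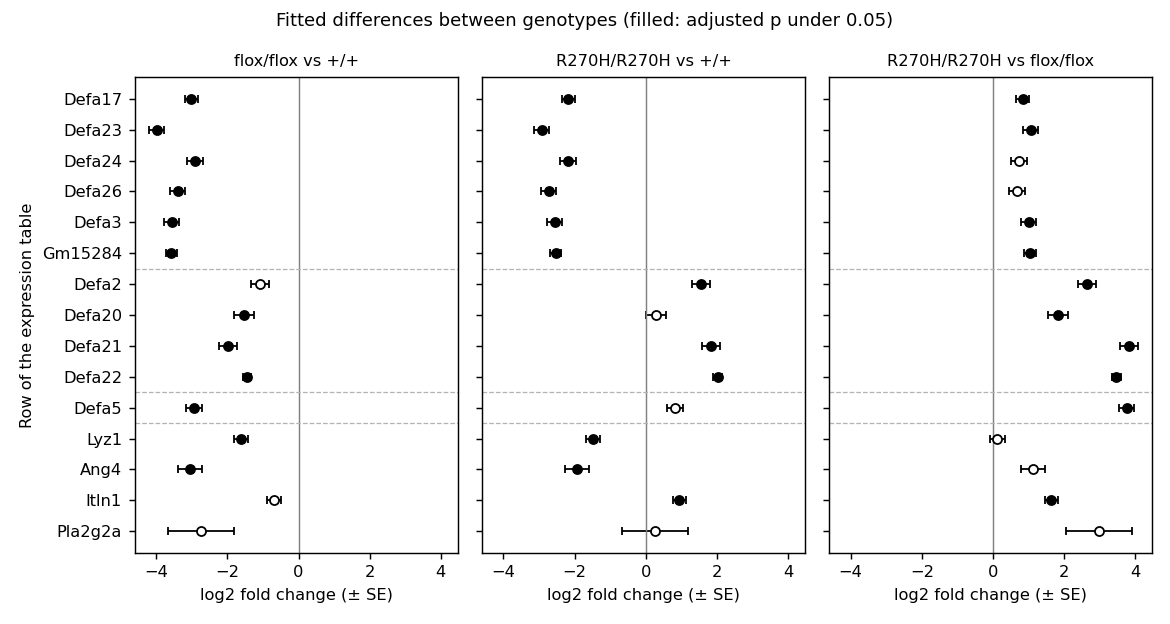
Log2 fold changes (± SE) of 15 tested members in the 3 comparisons, with dashed lines between sequence groups and companions and filled points for an adjusted p under 0.05. All 15 points lie below 0 for flox/flox against +/+, and for R270H/R270H against +/+ the 6 Defa23-like points lie below 0 and the 4 Defa21-like points above it. Defa26 passed the filter through +/+ alone.

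The Defa23-like group held the most abundant defensins of the +/+ organoids, and all 6 rows fell in both mutant genotypes. Defa23 was 426 and 338 RPKM in +/+, 23.0 and 22.9 in flox/flox, and 41.1 and 58.0 in R270H/R270H. Its genotypes did not overlap, and the +/+ mean was 16.7 times the flox/flox mean and 7.70 times the R270H/R270H mean. The log2 fold change against +/+ was −3.99 ± 0.20 (SE) in flox/flox (limma adjusted p = 0.00280) and −2.93 ± 0.20 in R270H/R270H (adjusted p = 0.00367).

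Defa3 was 411 and 318 RPKM in +/+, 27.3 and 32.3 in flox/flox, and 51.9 and 70.7 in R270H/R270H. Defa24 was 410 and 323 RPKM in +/+, 41.9 and 53.5 in flox/flox, and 68.7 and 91.5 in R270H/R270H. By mean level in +/+, Defa23, Defa3 and Defa24 each stood above 98.7% of the tested genes. Gm15284 was 176 and 150 RPKM in +/+, 13.3 and 12.1 in flox/flox, and 24.1 and 30.5 in R270H/R270H. Defa17 was 96.2 and 80.1 RPKM in +/+, 8.50 and 11.7 in flox/flox, and 19.2 and 18.0 in R270H/R270H. For all of these the lowest +/+ library was above every mutant library. The share of all tested genes that separate by genotype, in this or another order, is not given here.

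Defa26, the row of the group with the fewest windows in common with other copies, was 22.1 and 18.3 RPKM in +/+, at the floor in both flox/flox libraries, and 1.64 and 2.85 in R270H/R270H. It was therefore at least 20.2-fold lower in flox/flox than in +/+, and 9.01-fold lower in R270H/R270H. It passed the filter through +/+ alone, and its fitted change depends on the value added before taking logs. Across the group the log2 fold changes against +/+ ran from −3.99 to −2.92 in flox/flox and from −2.93 to −2.18 in R270H/R270H with 1 RPKM added, and the order of rows within these ranges changed with 0.1 RPKM added, where Defa26 had the largest fall of the group in both (−4.20 and −3.16). In R270H/R270H against flox/flox 4 of the 6 rose, with differences of 0.84 (Defa17) to 1.06 (Defa23). Defa24 (0.73, adjusted p = 0.0625) and Defa26 (0.67, adjusted p = 0.0788) were not called. The sum of the 6 rows was 1383 ± 222 RPKM in +/+, 124 ± 13.1 in flox/flox and 239 ± 45.8 in R270H/R270H (SD, n = 2).

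The Defa21-like group went the other way in R270H/R270H organoids. Defa21 was 25.8 and 20.4 RPKM in +/+, 6.61 and 3.77 in flox/flox, and 88.8 and 79.8 in R270H/R270H. The R270H/R270H mean was 3.65 times the +/+ mean (log2 fold change 1.83 ± 0.25 SE, limma adjusted p = 0.0163) and 16.2 times the flox/flox mean (3.82 ± 0.25, adjusted p = 0.00245). Defa22, whose transcript is 99.5% identical, was 11.6 and 9.50 RPKM in +/+, 3.23 and 3.21 in flox/flox, and 46.7 and 44.8 in R270H/R270H. For both rows every flox/flox library was below, and every R270H/R270H library above, the +/+ libraries.

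Defa2 was 28.9 and 20.1 RPKM in +/+, 13.5 and 8.64 in flox/flox, and 73.7 and 72.1 in R270H/R270H. It rose in R270H/R270H against both other genotypes (1.56 ± 0.26 SE against +/+, limma adjusted p = 0.0243), while its flox/flox difference of −1.09 was not called (adjusted p = 0.0566). Defa20 was 9.78 and 8.80 RPKM in +/+, 3.67 and 1.71 in flox/flox, and 10.6 and 12.8 in R270H/R270H. It fell in flox/flox and rose in R270H/R270H against flox/flox, but its difference of 0.30 ± 0.28 between R270H/R270H and +/+ was about as large as its error (adjusted p = 0.516). The sum of the 4 rows was 67.5 ± 12.2 RPKM in +/+, 22.2 ± 6.87 in flox/flox and 215 ± 7.33 in R270H/R270H (SD, n = 2), which is 3.18 times the +/+ mean. By mean level Defa21 stood above 68.6% of the tested genes in +/+, 20.0% in flox/flox and 93.2% in R270H/R270H.

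Defa5 was 91.9 and 69.4 RPKM in +/+, 11.4 and 7.99 in flox/flox, and 155 and 130 in R270H/R270H. It was the most abundant defensin row of the R270H/R270H organoids, at 142 ± 17.6 RPKM. The genotypes did not overlap, but the difference of 0.82 ± 0.22 (SE, log2) against +/+ was not called (limma adjusted p = 0.0731, and between 0.00258 and 0.386 over 15 alternative fits). It fell in flox/flox (−2.94 ± 0.22, adjusted p = 0.00636) and its difference between R270H/R270H and flox/flox was 3.76 ± 0.22 (adjusted p = 0.00209).

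**Figure D4:**
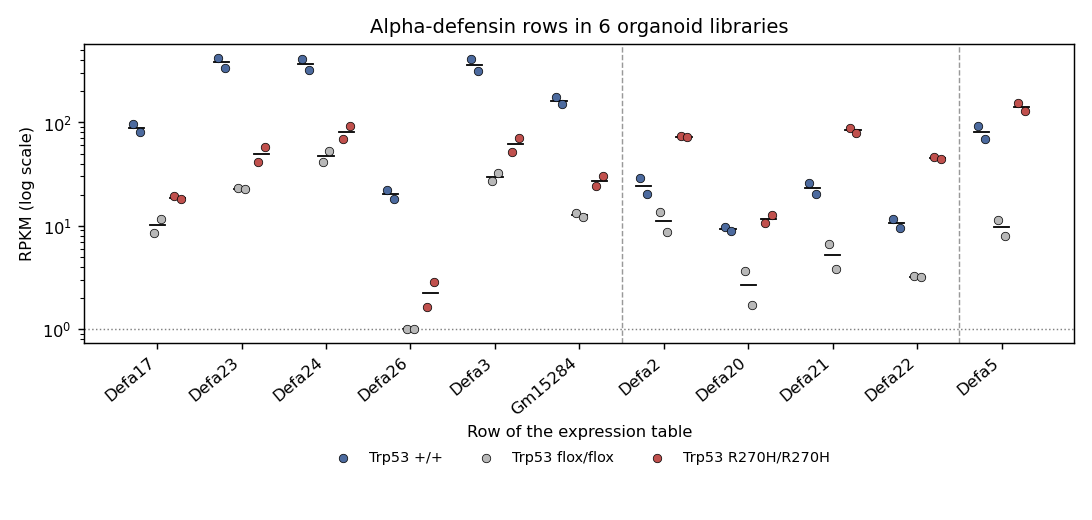
RPKM (log axis) of 11 expressed alpha-defensin rows in each library, with black bars for the mean of 2 libraries, dashed lines between sequence groups and a dotted line at the floor of 1 RPKM. The 6 rows on the left are highest in +/+, the 4 Defa21-like rows and Defa5 are highest in R270H/R270H, and every row is lowest in flox/flox.

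Rows of the same chromosome 8 locus that RefSeq names as alpha-defensins but the table lists under other symbols were examined after the values were seen. There were 14, of which 8 reached 4 RPKM. LOC100505096 (Defa33), 99.8% identical to Defa2, was at the floor in both +/+ libraries, 4.35 and 1.78 RPKM in flox/flox, and 45.3 and 43.8 in R270H/R270H. Gm15308 (Defa32), 99.8% identical to Defa20, was at the floor in +/+ and 8.15 and 5.36 RPKM in R270H/R270H. Both have every 50-base window in common with other copies. Gm15308 passed the filter through R270H/R270H alone, so no test of it is given.

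Other rows were most like Defa5. Gm10104 (Defa35) was 58.2 and 42.2 RPKM in +/+, 3.01 and 2.95 in flox/flox, and 44.2 and 40.5 in R270H/R270H. It fell in flox/flox, and its difference of −0.22 between R270H/R270H and +/+ was not called (limma adjusted p = 0.428). LOC100862126 (Defa36) was 9.80 and 7.65 RPKM in +/+, 3.42 and 2.85 in flox/flox, and 21.2 and 20.8 in R270H/R270H. It was called higher in R270H/R270H than in +/+ (5.86% of all genes) and than in flox/flox (13.6%). It was called lower in flox/flox than in +/+ (6.90%). Of its 50-base windows, 95.4% also occur in other alpha-defensin transcripts. Its twin Gm14850 (Defa37), identical over the aligned bases, was at the floor in every library. Gm15315 (Defa34) was 4.75 and 3.97 RPKM in +/+, at the floor in flox/flox, and 2.10 and 1.46 in R270H/R270H, and passed the filter through +/+ alone. With these rows added, the family sum was 1690 ± 276 RPKM in +/+, 198 ± 0.938 in flox/flox and 775 ± 20.2 in R270H/R270H (SD, n = 2). The ratio of R270H/R270H to +/+ became 3.83 for the Defa21-like sum, against 3.18 without them. For Defa5 and the rows clustered with it the ratio was 1.44, against 1.77 for Defa5 alone. For the Defa23-like sum it was 0.175 with them and 0.173 without.

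Among the companions, Lyz1 and Ang4 fell in both mutant genotypes. Lyz1 was 408 and 315 RPKM in +/+, 135 and 99.8 in flox/flox, and 125 and 129 in R270H/R270H. The mutant genotypes lay in the same range, and both were below +/+ (log2 fold change −1.62 ± 0.20 SE in flox/flox, limma adjusted p = 0.0167, and −1.49 ± 0.20 in R270H/R270H, adjusted p = 0.0154). The difference between the mutant genotypes was 0.13 ± 0.20 (adjusted p = 0.653) and turned to −0.09 without flox/flox replicate 2. Ang4 was 152 and 136 RPKM in +/+, 23.9 and 11.1 in flox/flox, and 35.6 and 38.7 in R270H/R270H, and it fell by 3.06 ± 0.34 and 1.92 ± 0.34 on the log2 scale (adjusted p = 0.0134 and 0.0287).

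Itln1 and Pla2g2a did not fall in R270H/R270H. Itln1 was 74.9 and 74.8 RPKM in +/+, 38.4 and 54.7 in flox/flox, and 135 and 156 in R270H/R270H. It rose in R270H/R270H by 0.95 ± 0.19 on the log2 scale against +/+ (limma adjusted p = 0.0382) and by 1.64 ± 0.19 against flox/flox (adjusted p = 0.00779), and its flox/flox difference of −0.70 was not called (adjusted p = 0.0738). Pla2g2a was 228 and 205 RPKM in +/+, 10.6 and 90.8 in flox/flox, and 264 and 250 in R270H/R270H. Both flox/flox libraries were below all others but far apart from each other, and no comparison of Pla2g2a was called (adjusted p = 0.111 for flox/flox against +/+, 0.884 for R270H/R270H against +/+ and 0.0708 between the mutants).

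**Figure D5:**
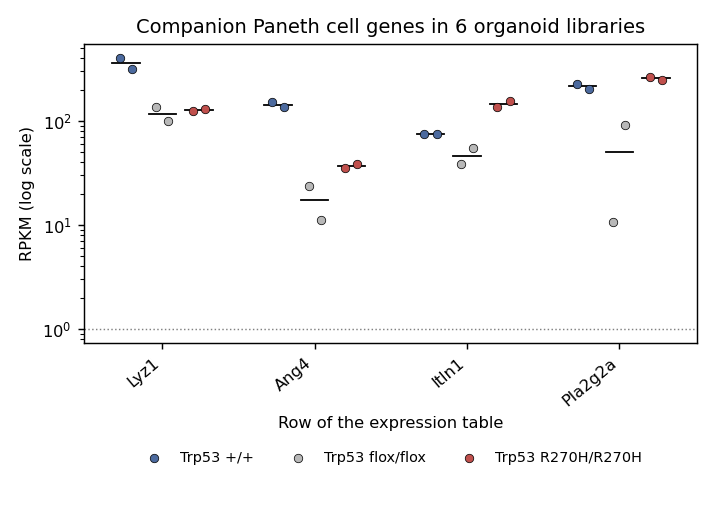
RPKM (log axis) of Lyz1, Ang4, Itln1 and Pla2g2a in each library, with black bars for the mean of 2 libraries and a dotted line at the floor of 1 RPKM. Lyz1 and Ang4 are highest in +/+, Itln1 and Pla2g2a are highest in R270H/R270H, and the flox/flox values of Pla2g2a, 10.6 and 90.8 RPKM, lie far apart.

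Other genes of Paneth cell secretion were read from lists drawn up by cell identity. Of 9 further secreted factors in the table, 6 were tested. Mmp7, the protease that activates the defensin precursors, was 624 and 485 RPKM in +/+, 351 and 397 in flox/flox, and 138 and 143 in R270H/R270H. It fell in R270H/R270H against +/+ (−1.96 ± 0.16 SE, limma adjusted p = 0.00441) and against flox/flox (−1.40 ± 0.16, adjusted p = 0.00769), so that its lowest genotype was not that of the defensins. The antimicrobial lectins Reg3g and Reg3b, which other epithelial cells also make, were 111 and 97.9 RPKM and 49.6 and 39.9 RPKM in +/+, and at the floor in both R270H/R270H libraries. Reg3g was called lower in flox/flox and in R270H/R270H than in +/+. Reg3b passed the filter through +/+ alone, so its values are given without a test. Apart from Reg3b, Mmp7 and Reg3g were called lower in R270H/R270H than in +/+ (6.36% of all genes). None of the 6 was called higher (5.86%, and also 0 of the 6 at an unadjusted p under 0.05). In flox/flox Reg3g was called lower (6.90% of all genes), and none of the 6 higher (4.38%, and also 0 of the 6 unadjusted). Between the mutants, Mmp7 was called lower (11.0% of all genes) and Pnliprp2, a pancreatic lipase-related protein, higher (13.6%) in R270H/R270H.

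Of 14 genes for Paneth cell niche signals, surface proteins and granule formation, 9 were tested. Slc30a2, the zinc transporter of Paneth cell granules, was 18.1 and 14.5 RPKM in +/+, 18.3 and 22.9 in flox/flox, and 163 and 172 in R270H/R270H. It rose by 3.30 ± 0.16 on the log2 scale against +/+ (limma adjusted p = 0.00354) and by 2.98 ± 0.16 against flox/flox (adjusted p = 0.00184). It was the single gene of the 9 called between R270H/R270H and +/+, where 5.86% of all genes were called higher and 6.36% lower. Cd24a, a surface protein used to sort Paneth cells, fell in flox/flox against +/+ (−0.67, limma adjusted p = 0.0353). It was the single call of that comparison, where 6.90% of all genes were called lower. Against flox/flox, Slc30a2, Tgfa, Cd24a and Atg16l1 were called higher in R270H/R270H, as were 13.6% of all genes. Of 6 transcription factors of the secretory lineage, 4 were tested. Sox9 was 17.7 and 19.0 RPKM in +/+, 24.5 and 20.2 in flox/flox, and 26.3 and 29.5 in R270H/R270H. Xbp1 was 61.7 and 56.9 RPKM in +/+, 45.7 and 59.0 in flox/flox, and 43.1 and 44.1 in R270H/R270H. Neither was called (limma adjusted p = 0.0524 for Sox9 and 0.116 for Xbp1 in R270H/R270H against +/+). Bhlha15 was 4.03 and 2.53 RPKM in +/+, 2.10 and 1.64 in flox/flox, and at the floor in both R270H/R270H libraries, and since it passed the filter through +/+ replicate 1 alone its difference is given as values. Gfi1, another of these factors, was at the floor in all 6 libraries. Of 11 other rows of the defensin cluster listed by symbol, 6 were tested. Gm15308 and Gm7849 passed the filter through R270H/R270H alone, and Gm15315 and Gm14851 through +/+ alone, so no calls of these rows are given. Gm10104 was called lower in flox/flox than in +/+ (6.90% of all genes). Gm10104 and AY761184 were called higher in R270H/R270H than in flox/flox (13.6% of all genes). Neither was called between R270H/R270H and +/+.

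Markers of other cell types were read for the same libraries. The epithelial markers Epcam, Cdh1, Krt8, Krt18 and Krt19 were detected throughout, with a summed level of 2529 to 2573 RPKM in +/+, 3867 to 4007 in flox/flox and 2081 to 2221 in R270H/R270H. Krt8 and Krt19 were called higher in flox/flox (4.38% of all genes) and Krt19 lower in R270H/R270H (6.36%) than in +/+. Krt8, Krt18 and Krt19 were called lower in R270H/R270H than in flox/flox (11.0%). Goblet cell markers summed to 416 and 353 RPKM in +/+, 180 and 148 in flox/flox, and 181 and 178 in R270H/R270H. Of 5 tested rows, Spink4 and Fcgbp were called lower than in +/+ in both mutant genotypes and Agr2 in flox/flox. Of all genes, 6.90% were called lower in flox/flox and 6.36% in R270H/R270H. Muc2, the main goblet cell mucin, has 2 rows, both at or under 1.42 RPKM in every library. The enteroendocrine marker Chgb was 10.8 and 7.41 RPKM in +/+ and at or under 2.15 RPKM in the mutant libraries. Stem cell markers summed to 178 to 202 RPKM in +/+, 181 to 214 in flox/flox and 243 to 280 in R270H/R270H, but the 5 markers did not move together. Ascl2, a Wnt-dependent stem cell factor, was 21.1 and 17.1 RPKM in +/+, 38.8 and 28.4 in flox/flox, and 8.16 and 10.8 in R270H/R270H, and was called lower in R270H/R270H than in flox/flox (limma adjusted p = 0.00984, and 0.0512 against +/+). Lgr5 was between 10.1 and 17.6 RPKM over the 6 libraries. Smoc2 was 26.9 and 19.3 RPKM in +/+, 79.0 and 43.4 in flox/flox, and 45.3 and 52.7 in R270H/R270H. Neither was called (for Smoc2 against +/+, limma adjusted p = 0.0587 in flox/flox and 0.0901 in R270H/R270H). Olfm4, at most 3.04 RPKM in +/+ and flox/flox, was 7.98 and 13.1 RPKM in R270H/R270H and passed the filter only there. Axin2, a Wnt target and the most abundant marker of the list, was 136 and 130 RPKM in +/+, 80.9 and 88.9 in flox/flox, and 171 and 191 in R270H/R270H, and was called lower in flox/flox than in each of the others. Of all genes, 6.90% were called lower in flox/flox than in +/+. Between the mutants, 13.6% were called higher and 11.0% lower in R270H/R270H. The part of these marker differences in the defensin values was not tested.

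Enterocyte markers summed to 105 to 161 RPKM over the 6 libraries, and most of this was Vil1, at 98.5 to 156 RPKM. Sis, Apoa1 and Apoa4 were at the floor in all 6 libraries, and Alpi and Fabp1 reached at most 10.7 and 8.87 RPKM. Alpi was called lower in flox/flox than in +/+ (6.90% of all genes), and Alpi and Fabp1 were called higher in R270H/R270H than in flox/flox (13.6%). Of the tuft cell markers, Avil alone reached the filter, at 1 RPKM in flox/flox replicate 1 and between 19.6 and 34.9 RPKM in the other libraries, and it was not called. Of 6 leukocyte marker rows, 5, among them Ptprc and Cd3e, were at the floor throughout, and Cd68 was 10.2 and 9.87 RPKM in +/+, 2.06 and 11.1 in flox/flox, and 2.22 and 2.41 in R270H/R270H. Of 7 stromal rows, 4 were at the floor throughout, and Acta2 was 11.5 RPKM in flox/flox replicate 2 and at most 1.59 RPKM elsewhere. The same library held the higher Pla2g2a value of the flox/flox pair. The summed alpha-defensin level was 176 RPKM in that library and 173 RPKM in its partner. Whether other cells in that library bear on these values was not tested.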

How the data were processed

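RNA-seq libraries were made from tumor organoids, 2 per genotype. The authors mapped reads to mm10 and deposited RPKM values computed in StrandNGS. Its version, its gene annotation and its handling of reads that map to several copies are not given in the sources used here. No deposited RPKM value is below 1.

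Models were fitted with limma 3.58.1 in R 4.3.3, and all else was computed in Python 3.11.15 with pandas 2.3.3, scipy 1.17.1, Biopython 1.88 and matplotlib 3.10.9. The 10042 genes that reached 4 RPKM in any library were tested. log2(RPKM + 1) of all 6 libraries was fitted by genotype with lmFit and eBayes (trend), and two-sided p-values were adjusted over all tested genes by the Benjamini-Hochberg method. Fold changes on this scale understate the change of low genes. The fit was also run on simulated data in which all genotypes shared a spread taken from +/+ and R270H/R270H. That run does not cover the wider spread of the flox/flox libraries. Family sums add RPKM over rows and have no test. Ratios are of genotype means.

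Every member reaching 4 RPKM was named with its value in each library, and list genes were named by the size of their difference among those called, at most 5 a list. The members and lists were chosen with earlier results of these data known. Transcripts (GENCODE M21) were aligned globally with free ends. Promoter windows, gene names and positions are from RefSeq. All 29 members matched RefSeq. 1 member that passed the filter is counted in totals but not reported here.

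The alternatives were a pseudocount of 0.1, 2 other filters on low values, median-of-ratios scaling, no trend, genotype weights, fits of 2 genotypes, a replicate block, and each library left out. Nothing in the labels ties same-numbered libraries of different genotypes together, and they were not treated as pairs.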

Additional observations from a re-analysis of the deposited data

How the results depend on the processing

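With 2 libraries a genotype, counts of calls depended on which libraries entered the fit, while directions did not. Of the log2 fold changes of the 16 tested members in 3 comparisons, the single reversal was Lyz1 between R270H/R270H and flox/flox, which leaving out each library moved between −0.092 (without flox/flox replicate 2) and 0.34. A pseudocount of 0.1, both other filters, median-of-ratios scaling and no trend left all 48 on their side of the threshold. Leaving out each library gave 0 to 15 members called between R270H/R270H and +/+, 0 to 16 between flox/flox and +/+, and 3 to 14 between R270H/R270H and flox/flox, with the lone library taken to vary like the other genotypes. Fits of the 2 genotypes alone called 15 members between R270H/R270H and +/+, 7 between flox/flox and +/+ and 6 between the mutants. Genotype weights called 15, 9 and 8 members in the same order. The replicate block, whose numbers no source ties to a shared animal or batch (same-number correlations of 0.12, −0.29 and −0.20), called 12, 12 and 8 members. With the R270H/R270H numbers exchanged it called 12, 14 and 12.

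Over all genes, 1227, 1133 and 2469 were called for R270H/R270H against +/+, flox/flox against +/+ and R270H/R270H against flox/flox. The block called 550, 280 and 1156, genotype weights 5987, 150 and 534, and fits of 2 genotypes 5721, 47 and 378. Without a filter on low values 1907 were called for the first. Leaving out each library gave 0 to 5732, 8 to 6875 and 166 to 7259. The cause of these changes was not tested.

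The family sum ratio of R270H/R270H to flox/flox, 3.65, was 3.89 with floored values as 0, 4.01 without Gm15284 and rows under 4 RPKM, and 3.91 with all alpha-defensin rows of the locus, the last chosen after seeing the data. Leaving out each library gave 3.55 to 3.75 for this ratio, 0.356 to 0.448 for R270H/R270H to +/+ and 0.0976 to 0.123 for flox/flox to +/+. Levels under 1 RPKM are unknown.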

Other observations

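The 10 genes outside the members and lists whose log2 level was most like that of the alpha-defensin sum over the 6 libraries were Pigk, Ptprd, Clec2e, Atp1b1, Msi2, Tk2, Mettl6, Ugt2b34, Enpp5 and Ankrd49. Their Pearson correlations with the log2 sum ranged from 0.990 to 0.999 among 9979 genes compared, which describes 6 libraries that fall into 3 genotypes. The size of their differences was mostly far smaller than that of the defensins. Pigk, an enzyme that attaches membrane anchors, was 10.7 and 10.3 RPKM in +/+, 6.72 and 6.74 in flox/flox, and 8.67 and 8.61 in R270H/R270H. Atp1b1, a subunit of the sodium pump, was 416 and 385 RPKM in +/+, 241 and 261 in flox/flox, and 330 and 327 in R270H/R270H. Clec2e was 8.82 and 8.15 RPKM in +/+, at the floor in both flox/flox libraries, and 4.10 and 3.33 in R270H/R270H. Msi2, an RNA-binding protein, was 22.5 and 22.8 RPKM in +/+, 7.72 and 8.88 in flox/flox, and 15.9 and 15.3 in R270H/R270H.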
